A study of Mus musculus with 6 samples.

Results

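The mouse mitochondrial genome encodes 13 messenger RNAs, 2 ribosomal RNAs and 22 transfer RNAs, and the 29 of these 37 genes that were listed among 19178 gene symbols in 6 count tables of small-intestinal crypt cells are described here. They were chosen by name alone, as every symbol that starts with mt-. They comprised 11 messenger RNA, 2 ribosomal RNA and 16 transfer RNA genes, and held 1020543 of 12822034 counts, or 7.96%. Ribosomal RNAs took 71.1% of the mt- counts, messenger RNAs 28.5% and transfer RNAs 0.382%.

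The mitochondrial genome is transcribed from both strands into long precursors that are cut apart, largely at the transfer RNAs that lie between the other genes. Its messenger RNAs encode core subunits of respiratory complexes I, III and IV and of the ATP synthase, its ribosomal RNAs build the mitochondrial ribosome, and its transfer RNAs read the codons. Most mitochondrial messenger RNAs and both ribosomal RNAs carry short A tails. In droplet sequencing a barcode's share of mt- counts is widely used as a sign of damaged cells or of droplets with little cytoplasmic RNA.

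Cells freshly released from crypts with EDTA and trypsin were assayed by Drop-seq, which primes on poly(A) in droplets and tags the RNA of each cell with a barcode. Knockout mice lacked Ptger4, a prostaglandin E2 receptor gene, in the epithelium, and flox mice were the controls. All mice were of the C57BL6 strain, 10 weeks old and untreated, and each genotype had 3 Drop-seq collections from 2 biological replicates. The sample codes were read as collections 1 and 2 coming from biological replicate 1 and collection 3 from biological replicate 2, which the labels do not state outright. Neither the Cre driver nor which exons were deleted was given in the sources used here.

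The collections held 1443 to 2934 barcodes and 1228337 to 3146909 counts each. The targeted gene, Ptger4, was at 15.7, 17.4 and 22.3 CPM (counts scaled to a fixed library total) in the knockout and 11.8, 13 and 14.1 CPM in the flox collections. Because 3′ tags may fall outside what was deleted, this level checks nothing. Xist reached 710 CPM in the third knockout and 675 CPM in the third flox collection, and 7.47 CPM or less in the other 4, so by this gene biological replicate 2 of both genotypes came from female tissue and biological replicate 1 from male tissue. Of 13101 distinct barcodes, 60 occurred in more than 1 collection. These few barcodes held 6.68% (knockout collection 2) to 14.1% (flox collection 1) of the counts of a collection. Knockout collection 1 and flox collections 1 and 2 shared 21 to 28 barcodes per pair, knockout collections 2 and 3 and flox collection 3 shared 9 to 18, and a pair across these sets shared 0 to 2. Barcodes with at least 300 genes and at most 25% mt- counts were kept, which left 4890 of 13191 (37.1%).

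Before the values, the sequences below show where reads of an mt- gene cannot be told from those of a nuclear copy, and where the template is rich in A. They were read from GENCODE M21 transcripts of GRCm38, the assembly that mm10 names. Positions count from 1 at the 5′ end of the mt- gene. A stretch of chromosome 1, chr1:24611535-24616197, holds 7 annotated pseudogenes whose matches lie between positions 6390 and 11042 of the mitochondrial genome; the bases between those pseudogenes were not compared. The capital in the first pair marks T3C, the 1 mismatch between mt-Nd3 (chrM:9459-9806, plus strand) and Gm28438 over 345 aligned bases; the next pair, 60 bases of mt-Co2 and of Gm28661, has none.
mt-Nd3: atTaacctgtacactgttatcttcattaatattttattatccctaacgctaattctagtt
Gm28438: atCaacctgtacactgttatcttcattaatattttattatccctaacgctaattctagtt
mt-Co2: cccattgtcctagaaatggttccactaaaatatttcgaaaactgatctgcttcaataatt
Gm28661: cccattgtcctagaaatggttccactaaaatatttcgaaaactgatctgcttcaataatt

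Both ribosomal RNAs hold A-rich stretches well inside the gene. The capitals below are the 20 bases with the most A, which start at position 395 of mt-Rnr2 (16 A) and at position 656 of mt-Rnr1 (15 A). Whether counts arose there or at the A tails cannot be read from gene counts.
mt-Rnr2: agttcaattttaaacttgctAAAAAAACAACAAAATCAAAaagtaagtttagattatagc
mt-Rnr1: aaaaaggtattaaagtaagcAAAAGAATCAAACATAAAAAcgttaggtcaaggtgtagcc

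The neighbouring transfer RNA genes mt-Tc (chrM:5192-5257, minus strand) and mt-Ty (chrM:5260-5326, minus strand) are shown because their counts went apart in 1 collection. Capitals mark the longest run of A, which is 3 bases in mt-Tc and 4 in mt-Ty.
mt-Tc: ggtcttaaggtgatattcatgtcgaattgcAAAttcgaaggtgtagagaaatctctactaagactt
mt-Ty: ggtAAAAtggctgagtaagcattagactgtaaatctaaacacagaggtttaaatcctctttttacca

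Genes between the ends of that copy were listed less fully than the others. Of 11 genes there, 5 were listed and 6 were not. Of those 6, mt-Nd4l had 98.8% of its 50-base windows in a nuclear transcript, while mt-Atp8 and the transfer RNA genes mt-Ts1, mt-Td, mt-Tk and mt-Tg had 0%. Of the other 26 genes, 24 were listed, all but the transfer RNA genes mt-Tn and mt-Th. mt-Co2 and mt-Co3, subunits of cytochrome c oxidase, and mt-Atp6, a subunit of ATP synthase, had 26, 10 and 20 counts over all collections. Every 50-base window of mt-Co2 recurs exactly in an annotated nuclear transcript, as do 99.5% of the windows of mt-Atp6 and 99.9% of those of mt-Co3. mt-Nd3, with 98.0% of its windows copied, held 2308 counts. mt-Co1 has copies for 51.1% of its windows, including all of its last 250, and held 47379 counts. The pseudogenes themselves took few counts: of the copies found, Gm10222, which matches mt-Nd4l, and Gm4076, which matches part of mt-Nd5, were listed, with 26 and 29 counts. mt-Nd4 has copies for 62.2% of its windows but for 0% of its last 250. For mt-Nd2 these values are 8.19% and 32.0%. The treatment of reads with several matches by the authors was not given in the sources used here. By this measure mt-Co1, mt-Nd2, mt-Nd3, mt-Nd4 and the near-empty genes are therefore uncertain, to differing degrees.

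**Figure D1:**
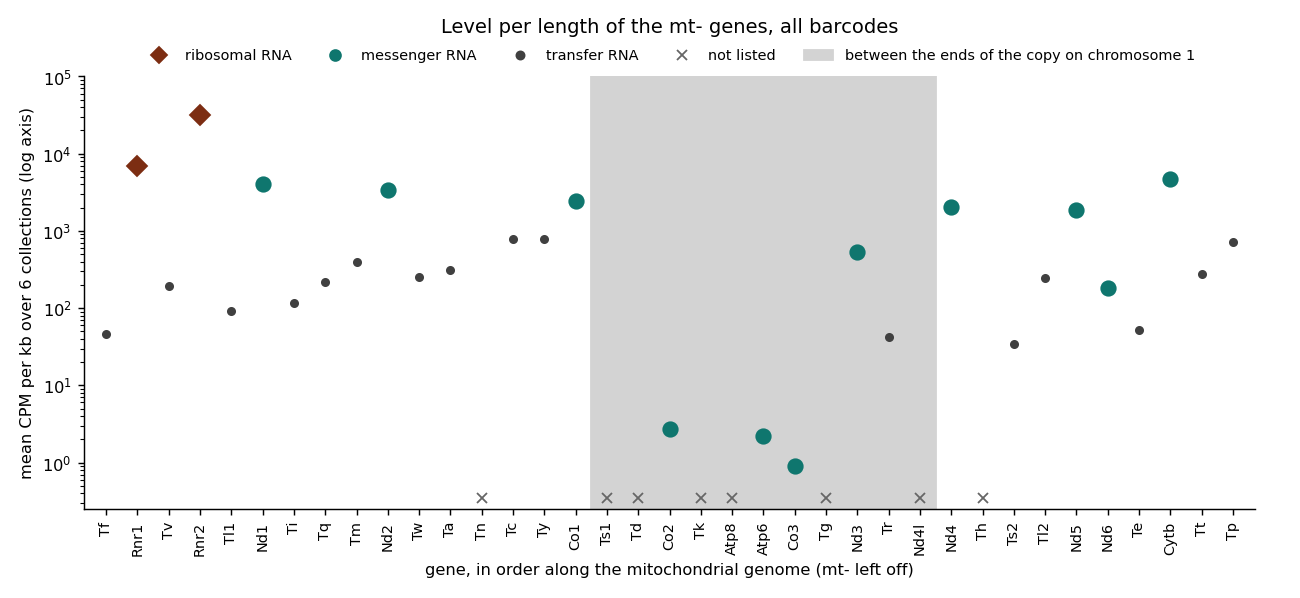
Mean CPM per kb over 6 collections (log axis) of the 37 annotated mitochondrial genes in genome order, with crosses for genes not listed and shading for the 11 genes between the ends of the chromosome 1 copy, of which not all have a copy in an annotated nuclear transcript. The shaded messenger RNAs other than mt-Nd3 stand below 3 CPM per kb, against 183 to 4768 CPM per kb for the messenger RNAs outside the shading. Counts primed on poly(A) need not grow with gene length.

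Levels were compared between genes as CPM per kb of gene, averaged over the collections. As Drop-seq primes on poly(A), counts need not grow with gene length, and this division changes some orders. By mean CPM alone mt-Co1 (3823) stood above mt-Nd2 (3513) and mt-Nd5 (3398) above mt-Nd4 (2771), the reverse of the order per kb. The large-subunit ribosomal RNA mt-Rnr2 stood at 31432 CPM per kb and the small-subunit ribosomal RNA mt-Rnr1 at 6882, a ratio of 4.57. Among messenger RNAs, mt-Cytb, the complex III subunit, was highest at 4768 CPM per kb. The complex I genes mt-Nd1, mt-Nd2, mt-Nd4 and mt-Nd5 followed at 4108, 3384, 2011 and 1863 CPM per kb, with the complex IV gene mt-Co1 at 2475. mt-Nd3 stood at 539 CPM per kb. mt-Nd6, which encodes a complex I subunit and is transcribed from the opposite strand to the other messenger RNAs, stood at 183. Within kept barcodes mt-Rnr1 took 10.7% to 13.9% of the ribosomal counts over the collections.

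Transfer RNAs were sparse, with 3898 counts in total over the 16 listed genes. The 6 listed genes on the strand of mt-Nd6 had a median of 519 CPM per kb (range 52.7 to 789), and the 10 on the other strand a median of 153 (range 34.2 to 399). mt-Tc, mt-Ty and mt-Tp, the transfer RNAs for cysteine, tyrosine and proline, were highest at 789, 780 and 724 CPM per kb, and all 3 are on the strand of mt-Nd6.

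Flox collection 2 stood apart in these short RNAs. It was the lowest of the 6 collections for 12 of 16 transfer RNAs and the highest for mt-Ty and mt-Te. mt-Tc stood at 55.3, 140 and 19.3 CPM in the knockout and 56.6, 1.63 and 39.5 CPM in the flox collections. Its neighbour mt-Ty stood at 68.7, 51.7 and 26.8 CPM in the knockout and 56.6, 93.6 and 16.1 CPM in the flox collections. Thus mt-Tc had 1.74 counts per 100 of mt-Ty in flox collection 2 and 71.8 to 271 per 100 in the other 5 collections. mt-Ta, mt-Tf, mt-Tm and mt-Tr had no count in flox collection 2, which allows up to 2.44 CPM each (3 counts). mt-Tp stood at 68.7, 65.4 and 35.5 CPM in the knockout and 60.1, 30.9 and 30.3 CPM in the flox collections, and the groups overlapped for all 3 genes. Other short nuclear RNAs were also low in flox collection 2: 64 small nucleolar RNA genes summed to 0.0183% of its counts, against 0.0322% to 0.0553% elsewhere, and the vault RNA gene Vaultrc5 to 0.00318%, against 0.0133% to 0.0315%. These companions were chosen after the values were seen, and their part in the transfer RNA levels was not tested.

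Flox collection 3 stood apart in the ribosomal RNAs. mt-Rnr2 stood at 50237, 45842 and 45839 CPM in the knockout and 31144, 40919 and 84369.8 CPM in the flox collections. mt-Rnr1 stood at 6722, 5888 and 5991 CPM in the knockout and 4293, 3572 and 12967 CPM in the flox collections. For both genes the knockout collections lay between flox collections 1 and 2 on the low side and flox collection 3 on the high side.

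**Figure D2:**
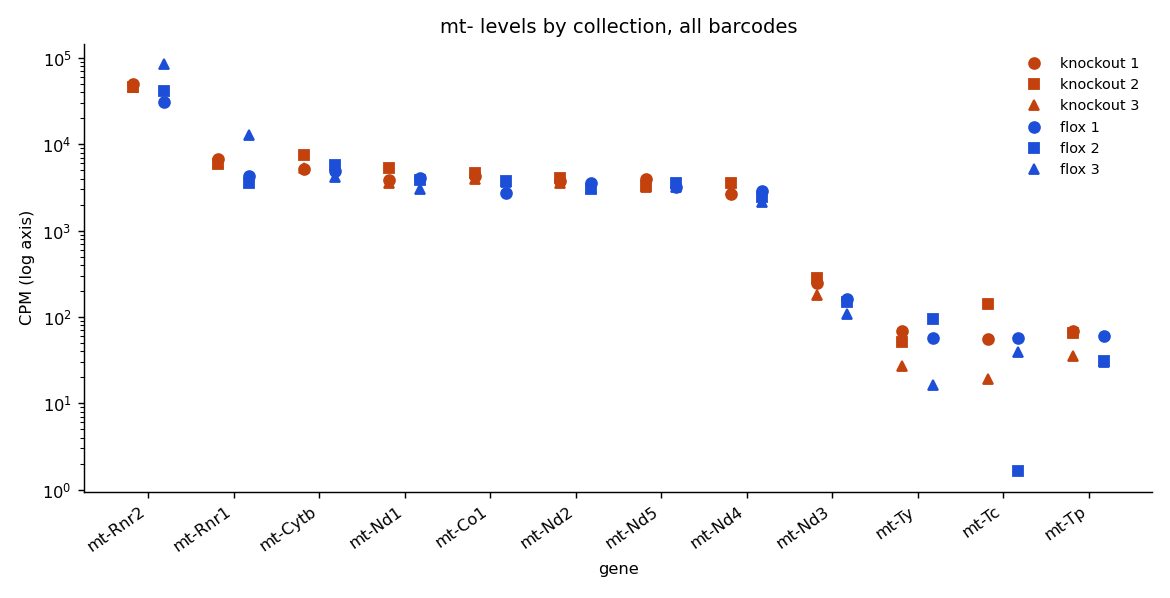
CPM (log axis) of the 2 ribosomal RNAs, 7 messenger RNAs and 3 transfer RNAs in each collection, all barcodes, knockout left of flox. Flox collection 3 is highest for mt-Rnr2 and mt-Rnr1 at 84369.8 and 12967 CPM, flox collection 2 is lowest for mt-Tc at 1.63 CPM, and the knockout points for mt-Nd3 lie above the flox points.

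The question the design asks is whether loss of epithelial Ptger4 changed these RNAs. Summed over all barcodes, mt- counts were 8.14%, 8.11% and 7.48% of counts in knockout collections 1 to 3, against 5.73%, 6.72% and 11.7% in the flox collections, each in the order 1 to 3. By biological replicate the share was 7.80% ± 0.456 in knockout and 8.85% ± 4.02 in flox (SD, n = 2 each), a difference of -1.05 percentage points (exact two-sided permutation p = 1.0, the smallest possible being 0.33). The difference was 2.11 percentage points in biological replicate 1 and -4.22 in biological replicate 2. Within the sets of collections that shared barcodes it was 1.91 for knockout collection 1 against flox collections 1 and 2, and -3.91 for knockout collections 2 and 3 against flox collection 3. Replicate number, sex and, in part, these sets go together, so they cannot be told apart. Barcode depth also differed between collections: kept barcodes were 31.1%, 35.2% and 55.6% of all barcodes for knockout and 73.0%, 16.1% and 35.3% for flox, and the part of depth in the mt- share was not tested.

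The ribosomal RNAs carried that split and the messenger RNAs did not. The ribosomal share was 5.31% ± 0.184 for knockout and 6.77% ± 4.20 for flox, with differences of 1.65 and -4.55 percentage points in biological replicates 1 and 2. Messenger RNAs were 2.41%, 2.87% and 2.28% of counts in knockout collections 1 to 3, against 2.15%, 2.26% and 1.94% in flox collections 1 to 3, and the groups did not overlap. The means were 2.45% ± 0.252 in knockout and 2.06% ± 0.168 in flox (n = 2 each), a difference of 0.392 percentage points whose exact permutation p of 0.33 is the smallest this design allows. The difference was 0.451 and 0.33 in biological replicates 1 and 2, and 0.201 and 0.633 within the 2 sets that shared barcodes. Taken as 3 single collections against 3, the exact permutation p was 0.10, again the smallest possible. Some of these collections come from the same biological replicate, so they are not independent. Without the 60 shared barcodes the messenger difference was 0.438 percentage points. In kept barcodes the messenger share was 2.22%, 2.45% and 2.01% for knockout and 2.03%, 1.87% and 1.85% for flox, so the genotypes overlapped there by 1 pair of collections, with a difference of 0.249 percentage points (exact permutation p = 0.33, the smallest possible).

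At an adjusted p under 0.05, no mt- gene was called between genotypes with all collections, the low-count filter and no replicate block. Calls of mt-Nd3 by edgeR without that filter, or with a replicate block, are given at the end. edgeR's quasi-likelihood test on sums per biological replicate tested 22 members in all barcodes and called 0, beside a background of 0.00924% of 10825 genes. An unadjusted p under 0.05 was found for 1 member and for 245 of all genes. DESeq2 likewise called 0 members, with 1 of 29 at an unadjusted p under 0.05, beside 95 of 19178 genes. All 8 tested messenger RNAs had a positive fold change, with a median log2 value of 0.27, both ribosomal RNAs had a negative one, with a median of -0.41, and 11 of 12 transfer RNAs a positive one. The messenger and ribosomal signs were the same with DESeq2 and with scaling by genes that are not mt-, and without flox collection 1 there were 7 positive messenger RNAs, mt-Nd5 being at -0.0028. The median over all genes tested was -0.00. These p-values rest on 2 samples per genotype, and both methods draw the spread of each gene toward that of other genes. By Xist the 2 samples of a genotype came from different sexes, so the spread in these fits includes any difference between the sexes.

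Among messenger RNAs, mt-Cytb stood at 5169.8, 7526 and 5263 CPM in the knockout and 4866, 5761 and 4140.5 CPM in the flox collections. mt-Co1 stood at 4293, 4649.5 and 3922 CPM in the knockout and 2739, 3708 and 3628 CPM in the flox collections. The share of all genes without overlap between the genotypes is not given here. A lack of overlap therefore does not by itself set a member apart, which applies to mt-Nd2 and mt-Nd3 below too. Some collections of a genotype also come from the same biological replicate and are not independent. mt-Cytb overlapped between the genotypes and mt-Co1 did not. Their log2 fold changes were 0.34 (SE 0.18) and 0.35 (SE 0.19), with edgeR adjusted p = 1.0 for each. Within the sets that shared barcodes, mt-Co1, mt-Nd2, mt-Nd3 and mt-Nd5 were higher in knockout in both, while mt-Cytb, mt-Nd1 and mt-Nd4 had log2 ratios of -0.04, -0.05 and -0.01 in the set of knockout collection 1 and of 0.63, 0.56 and 0.60 in the other.

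mt-Nd1 stood at 3819.5, 5286 and 3579 CPM in the knockout and 4071, 3826 and 3004 CPM in the flox collections. mt-Nd2 stood at 3778, 4057 and 3558 CPM in the knockout and 3520, 3026 and 3141 CPM in the flox collections. mt-Nd2 did not overlap between the genotypes and mt-Nd1 did. mt-Nd4 stood at 2656, 3556 and 2924 CPM in the knockout and 2911, 2449.7 and 2131 CPM in the flox collections. mt-Nd5 stood at 3992, 3279 and 3237 CPM in the knockout and 3159, 3536 and 3187 CPM in the flox collections. Both overlapped, and the log2 fold changes of mt-Nd1, mt-Nd2, mt-Nd4 and mt-Nd5 were 0.23, 0.21, 0.31 and 0.11.

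mt-Nd3 had the largest fold change of the messenger RNAs in all barcodes. It stood at 249, 279 and 178 CPM in the knockout and 162, 147 and 109 CPM in the flox collections, and the genotypes did not overlap. Its log2 fold change was 0.74 (SE 0.24), with an unadjusted edgeR p of 0.0101 and an adjusted p of 1.0. It was 0.55 without flox collection 3. The log2 ratio of mean CPM was 0.69 for knockout collection 1 against flox collections 1 and 2, and 1.06 for knockout collections 2 and 3 against flox collection 3.

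The same gene was followed through the other barcode sets and classes. These are parts of the same counts from the same samples, so their values do not repeat the result in all barcodes independently. Its log2 fold change was 0.69 in kept and 0.58 in failing barcodes, 0.46 in stem cell-like, 0.84 in cycling-like, 1.31 in enterocyte-like and 0.34 in goblet-like cells, with edgeR adjusted p from 0.775 to 1.0. In enterocyte-like cells it stood at 307 and 118 CPM in knockout biological replicates 1 and 2, against 121 and 52.0 CPM in flox biological replicates 1 and 2. The genotypes overlapped there, and within each biological replicate the knockout was higher. Without knockout collection 3 the value in enterocyte-like cells was 1.81. That fit holds 1 knockout sample, which is assumed to vary like the flox samples, so only its effect size is given. As the sequences above show, reads of mt-Nd3 cannot be told from those of Gm28438 over nearly all of its length.

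edgeR called 0 members in each of the other 6 fits as well, beside backgrounds of 0.00947% of genes in kept barcodes, 0.0679% in failing barcodes (0.0226% higher and 0.0452% lower in knockout), 0.0714% in the stem cell-like, 0.031% in the cycling-like, 0.0222% in the enterocyte-like and 0.0161% in the goblet-like class. At an unadjusted p under 0.05 these fits had 2, 2, 3, 1, 2 and 0 of 22, 18, 13, 11, 15 and 13 members. Over all genes 235 of 10555, 114 of 4420, 167 of 5599, 141 of 3228, 184 of 4495 and 111 of 6196 did. DESeq2 called 0 members in each, with 1, 0, 0, 0, 2 and 0 of 27 to 29 at that level. Its counts over all genes there were 103, 36, 36, 35, 47 and 23, of 12509 to 18668 tested. All 8 messenger RNAs had positive values in kept and failing barcodes and in stem cell-like and enterocyte-like cells, against 5 of 8 in cycling-like and 1 of 8 in goblet-like cells; the difference between classes was not tested. Both ribosomal RNAs were negative in all 7 fits, and without flox collection 3 they were positive in all barcodes, at 0.65 for mt-Rnr1 and 0.53 for mt-Rnr2. In stem cell-like cells without flox collection 3 both were at 0.63, on the other side of 0 from the values with it. That fit has 1 flox sample left, which is assumed to vary like the knockout samples, so only effect sizes are given. The log2 ratio of mean CPM was 0.77 for mt-Rnr1 and 0.48 for mt-Rnr2 for knockout collection 1 against flox collections 1 and 2, and -1.13 and -0.88 for knockout collections 2 and 3 against flox collection 3.

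None of the named transfer RNAs was called. The log2 fold changes in all barcodes were 0.57 (SE 0.51) for mt-Tc, 0.34 (SE 0.32) for mt-Tp and 0.08 (SE 0.50) for mt-Ty, each with an edgeR adjusted p of 1.0. Within the sets that shared barcodes, the log2 ratio of mean CPM was 0.93 and 1.01 for mt-Tc, 0.60 and 0.74 for mt-Tp, and -0.13 and 1.28 for mt-Ty. Fits without knockout collection 3 or flox collection 3 have a genotype with 1 sample, which is assumed to vary like those of the other genotype. Members called only in such fits are given by effect size alone. In all barcodes without knockout collection 3, mt-Ta, mt-Tc and mt-Tm were at 1.57, 1.30 and 1.22. In enterocyte-like cells without flox collection 3, mt-Tl2 was at -2.45.

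The make-up of the messenger pool was compared by respiratory complex, and 2 samples per genotype cannot show that it was the same. Complex I genes held 59.3% ± 0.410 of messenger counts in knockout against 61.4% ± 1.92 in flox (SD, n = 2 each, exact permutation p = 0.33, the smallest possible). mt-Cytb, for complex III, held 23.5% ± 0.599 in knockout and 22.4% ± 1.52 in flox. The complex IV genes held 17.1% ± 0.189 in knockout and 16.3% ± 3.45 in flox, with flox collections 1 and 3 at 12.7% and 18.7% on either side of every knockout collection. Among 35 nuclear genes of mitochondrial DNA maintenance, transcription and RNA processing, such as the polymerase Polrmt and the packaging factor Tfam, edgeR tested 30 in all barcodes and called 0, and 0 had an unadjusted p under 0.05. The median of these 30 was -0.04 on the log2 scale, with 13 of them positive.

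Barcodes that failed the limits differed from kept ones in which mt- RNAs they held. The mt- share itself chose the failing barcodes and is given as a description: it was 28.6% ± 7.23 in failing and 5.66% ± 1.03 in kept barcodes (SD, 4 biological replicates). Of 8301 failing barcodes, 3713 failed on genes alone, 184 on mt- share alone and 4404 on both.

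Ribosomal RNAs made up more of the mt- counts of failing barcodes. In failing barcodes they were 86.2%, 77.2% and 81.0% of the mt- counts for knockout and 79.9%, 80.2% and 93.6% for flox, in collection order. In kept barcodes the values were 57.7%, 53.4% and 63.9% for knockout and 57.8%, 51.0% and 73.6% for flox. The mean was 84.1% ± 6.33 in failing and 62.4% ± 8.35 in kept barcodes. The difference was 21.8 percentage points (SD 4.0), higher in 6 of 6 collections (exact sign-flip permutation p = 0.13, the smallest that 4 pairs allow). Messenger RNAs were 15.6% ± 6.27 of mt- counts in failing and 37.2% ± 8.12 in kept barcodes. Transfer RNAs were 0.229% ± 0.107 in failing and 0.465% ± 0.251 in kept barcodes. Both were lower in 6 of 6 collections. Of the 8301 failing barcodes, 184 were chosen for a high mt- share alone and 4404 for it together with few genes. Ribosomal RNAs are the larger part of mt- counts, so this choice by itself favours the directions found. The p-value above therefore cannot decide whether the make-up differs apart from that choice.

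The shift was not limited to barcodes chosen on their mt- share. Barcodes that failed on genes alone, with at most 25% mt- counts, had a ribosomal share 15.8 percentage points above kept barcodes, and those that failed on mt- share alone 15.1 points above, both in 6 of 6 collections. The first of these sets is under the same limit on mt- counts as kept barcodes. It still had a mean of 14.3% mt- counts, against 5.66% in kept barcodes, so these were not matched in mt- share or depth. The second set was chosen for a high total of which ribosomal RNAs are the larger part.

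**Figure D3:**
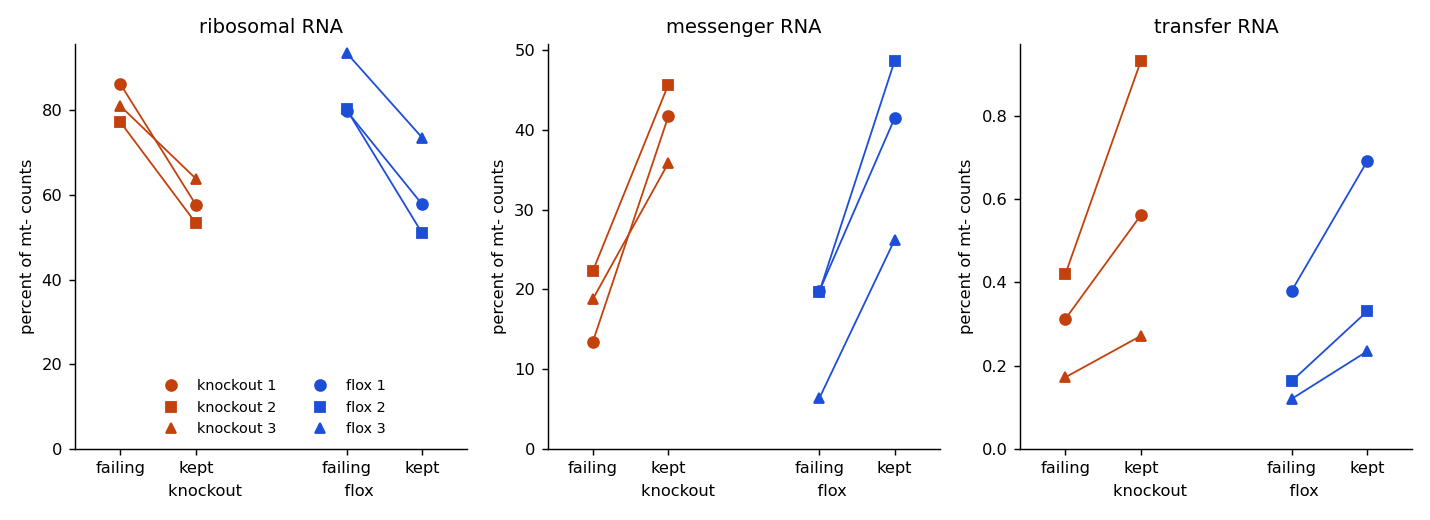
Ribosomal, messenger and transfer RNA members as percent of mt- counts in failing and kept barcodes, 1 line per collection, knockout left of flox. In all 6 collections the ribosomal share is higher and the messenger and transfer shares are lower in failing barcodes.

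Within the messenger RNAs the make-up of failing barcodes was close to that of kept ones. mt-Cytb was 22.7% ± 1.54 of messenger counts in failing and 23.0% ± 1.08 in kept barcodes, and mt-Co1 16.5% ± 1.05 in failing and 16.7% ± 2.26 in kept barcodes. mt-Nd2 was 16.5% ± 1.41 in failing and 15.3% ± 0.477 in kept barcodes, and mt-Nd4 11.3% ± 0.974 in failing and 12.2% ± 0.877 in kept barcodes. These gaps were within or near the spread between replicates, which is not the spread of paired differences, and they were not tested. mt-Cytb was lower in the failing barcodes of each collection, by little (20.5% against 21.5% in flox collection 3). Complex IV genes were lower in failing barcodes of knockout collection 1 (15.7% against 18.4%) and higher in those of knockout collection 2 (17.4% against 15.7%). Within the ribosomal RNAs, mt-Rnr1 made up 9.95% ± 2.17 of ribosomal counts in failing and 13.2% ± 0.589 in kept barcodes, and was lower in the failing barcodes of each collection; this comparison was not tested.

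Other RNAs moved with the same split. Malat1, a nuclear-retained long RNA, was 1.64% to 3.33% of counts in failing barcodes and 0.652% to 1.29% in kept barcodes over the 6 collections. The 97 ribosomal protein genes, whose messages are cytoplasmic, were 5.50% to 10.5% in failing barcodes and 14.5% to 18.4% in kept barcodes. The part of lost cytoplasmic RNA in these shares was not tested.

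Across barcode depth the ribosomal and messenger RNAs followed different courses. The ribosomal share of counts had a median over 6 collections of 24.8% in barcodes under 100 counts, 24.1% from 100 to under 250, 11.4% from 250 to under 500, 8.0% from 500 to under 1000, 4.52% from 1000 to under 2000 and 2.30% at 10000 or more. It was highest under 250 counts in every collection. The messenger share instead had medians of 2.16%, 3.04%, 5.14%, 3.57%, 2.43% and 1.97% in the same 6 bins. It peaked at 250 to under 500 counts in 5 of 6 collections, at 4.67% to 5.86%, and at 500 to under 1000 counts in flox collection 3, at 3.46%.

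Malat1 peaked in the same bin as the messenger RNAs in every collection, with a median of 2.40% at 250 to under 500 counts, against 1.32% under 100 counts and 0.603% at 10000 or more. Ribosomal RNAs were thus 91.7% of mt- counts in the shallowest barcodes and 54.6% in the deepest (medians). The share of ribosomal protein genes had a median of 7.67% under 100 counts and 17.1% at 10000 or more. Transfer RNAs had medians between 0.020% and 0.066% over the 8 bins, on few counts. A shallow barcode can be free RNA, a fragment or a small cell, and these were not told apart.

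**Figure D4:**
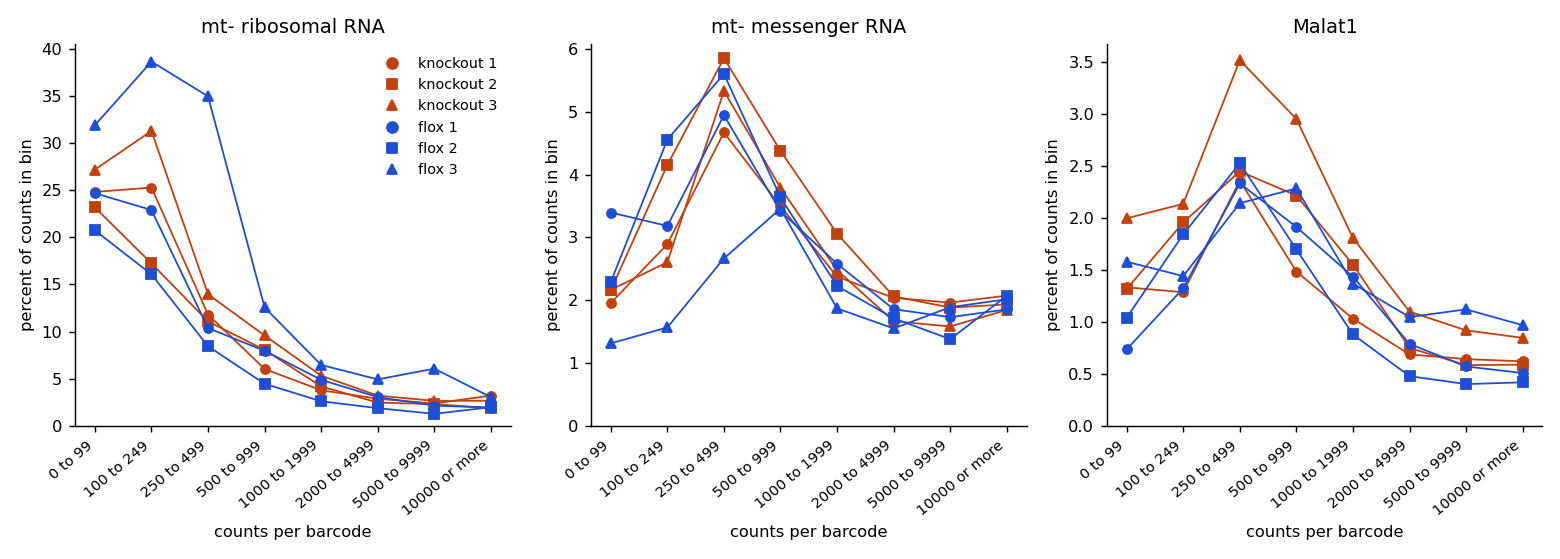
Percent of counts on mt- ribosomal RNA, mt- messenger RNA and Malat1 by counts per barcode, 1 line per collection. Ribosomal RNA is highest under 250 counts, while messenger RNA and Malat1 peak at 250 to under 500 counts in 5 of 6 collections.

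Barcodes with at least 300 genes were clustered without the mt- genes, clusters were named from marker lists, and class levels were taken over kept cells. Of 16 clusters, 5 stayed unnamed. Paneth-like and tuft-like cells had the highest mt- shares among named classes, at 7.93% ± 2.85 and 7.98% ± 3.32 (SD, 4 biological replicates), on 104 and 56 cells. Enterocyte-like cells had 5.23% ± 0.797, goblet-like cells 4.70% ± 1.26 and cycling-like cells 4.08% ± 0.723. T or NK cell-like cells were lowest at 3.60% ± 1.07. Stem cell-like cells, which comprise a cluster led by Lgr5 and a cluster led by S-phase genes such as Hells and Dtl, had 4.90% ± 1.02. Olfm4 was among the leading genes of both clusters. The S-phase cluster holds 517 of the 850 kept stem cell-like cells, with 6 of 17 stem markers enriched, and the Lgr5 cluster 333 cells, with 8 of 17. The Lgr5 cluster alone had a higher mt- share, 6.94% ± 1.58, and a messenger share of 2.83% ± 0.821. Most neighbours in this order do not differ beyond their spread.

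The messenger share of counts was lower in 5 classes than in stem cell-like cells, in 4 of 4 biological replicates each. It was 1.71% ± 0.162 in cycling-like, 1.33% ± 0.198 in goblet-like, 1.02% ± 0.141 in B or plasma cell-like, 0.876% ± 0.0541 in enteroendocrine-like and 0.710% ± 0.167 in T or NK cell-like cells, against 2.04% ± 0.231 in stem cell-like cells. For each of these 5 classes the exact sign-flip permutation p was 0.13, the smallest that 4 pairs allow. Enterocyte-like (1.85% ± 0.501), Paneth-like (2.16% ± 0.823) and tuft-like cells (2.43% ± 0.683) lay on either side of the stem cell-like level from replicate to replicate. Against the Lgr5 cluster alone, an alternative chosen after seeing the data, the same 5 classes and enterocyte-like cells were lower in 4 of 4 biological replicates.

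The ribosomal share of mt- counts was higher than in stem cell-like cells in 7 classes, in 4 of 4 biological replicates each (exact sign-flip permutation p = 0.13, the smallest possible). It was 64.2% ± 6.50 in enterocyte-like, 67.2% ± 11.3 in tuft-like, 70.5% ± 4.32 in goblet-like, 71.6% ± 6.84 in Paneth-like, 74.6% ± 7.44 in B or plasma cell-like, 76.3% ± 8.83 in enteroendocrine-like and 79.0% ± 6.12 in T or NK cell-like cells, against 56.2% ± 10.9 in stem cell-like cells. Cycling-like cells had 56.3% ± 10.2 and were above stem cell-like cells in 2 of 4 biological replicates. Goblet-like cells exceeded stem cell-like cells by 14.3 percentage points (SD 7.26), and enterocyte-like cells by 7.96 (SD 5.79). Against the Lgr5 cluster alone, at 58.3% ± 10.3, these differences were 12.1 and 5.81, and 6 of the 7 classes were higher in 4 of 4 biological replicates, tuft-like cells in 3 of 4.

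Each cell was also thinned to 500 counts, which left out 5 to 24 stem cell-like and 2 to 8 goblet-like cells per biological replicate. The 7 classes stayed above stem cell-like cells in ribosomal share in 4 of 4 biological replicates. Thinning gives cells equal weight but keeps the expected make-up of each, so it cannot show the part of depth or free RNA. Several classes rest on few cells, down to 7 enteroendocrine-like, 10 tuft-like, 10 B or plasma cell-like, 15 Paneth-like and 17 T or NK cell-like cells in a biological replicate. No doublets were removed, and the part of free RNA in the class levels was not tested.

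**Figure D5:**
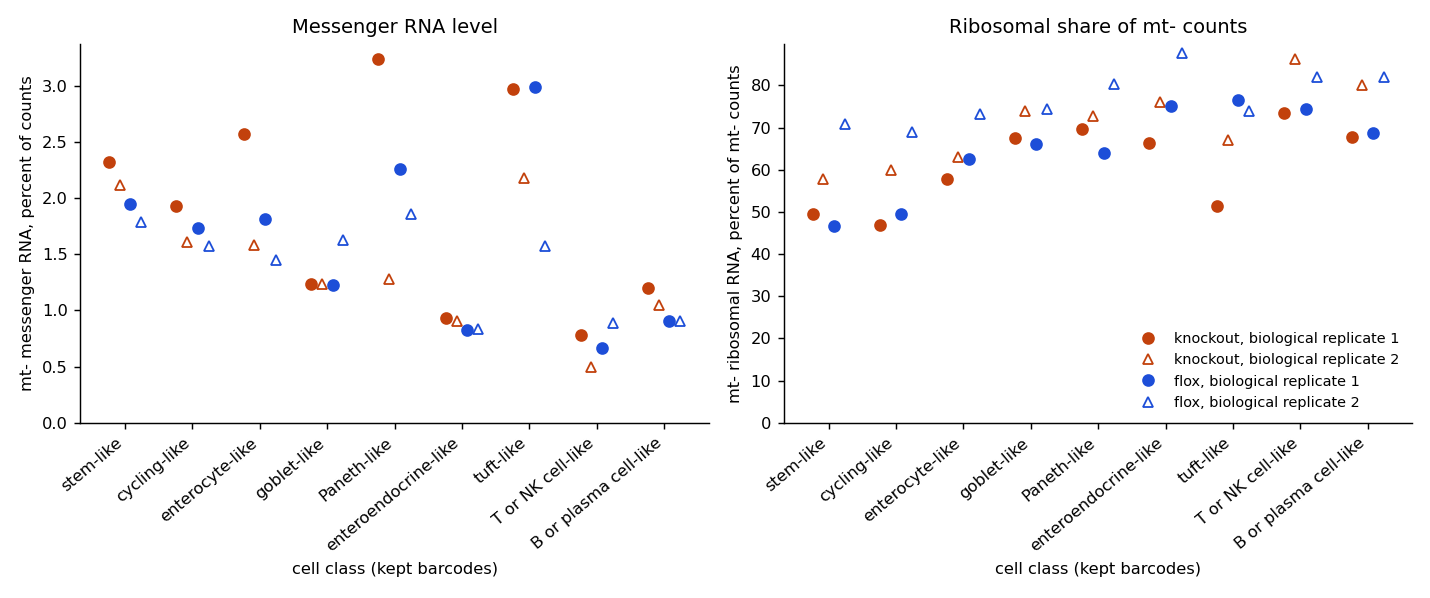
Mitochondrial messenger RNA as percent of counts, and ribosomal RNA as percent of mt- counts, by cell class in kept barcodes, with 1 point per biological replicate and knockout left of flox within a class. Goblet-like, enteroendocrine-like and immune-like classes lie below stem cell-like cells of the same biological replicate for messenger RNA and above them for the ribosomal share.

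Single members differed by class as well, without a test. mt-Cytb averaged 2962 CPM in goblet-like and 4179 CPM in enterocyte-like cells, against 4797.5 CPM in stem cell-like cells. mt-Co1 averaged 2271 CPM in goblet-like and 3359.7 CPM in enterocyte-like cells, against 3296 CPM in stem cell-like cells. mt-Rnr1 averaged 4712 CPM in goblet-like and 3849 CPM in enterocyte-like cells, against 3312.5 CPM in stem cell-like cells.

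Barcodes over the 25% limit were unevenly spread over the clusters. Of cells with at least 300 genes, 10.4% of the unnamed cluster led by Gm26917 and 8.52% of the unnamed cluster led by Dst and Ppargc1a were over the limit, as were 7.14% of Paneth-like and 6.59% of enterocyte-like cells. The values were 1.05% for stem cell-like, 1.08% for cycling-like and 0.563% for goblet-like cells, and no B or plasma cell-like, T or NK cell-like or enteroendocrine-like cell was over it. The cluster led by Gm26917 had the highest mt- share among kept cells, 9.86% ± 2.90, with mt- messenger RNAs at 3.57% ± 1.18 of counts, ribosomal RNAs at 62.0% ± 10.9 of mt- counts and Malat1 at 1.42% of counts.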

How the data were processed

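Gene counts per barcode were measured in 6 Drop-seq collections. The deposited tables hold whole-number counts; per the submitters' processing notes, reads were aligned with STAR 2.6 to mm10, while the rule for calling barcodes and the annotation were not given in the sources used here. Members and lists were chosen with earlier results of these data known. Counts were summed per biological replicate, and edgeR 4.0.16 (quasi-likelihood test, TMM, genes with a minimum count of 10, Benjamini-Hochberg over all genes at 0.05) compared the genotypes; DESeq2 1.42.0 was an alternative, as were other limits, blocks and left-out collections. Shares were compared by exact permutation tests. Barcodes with at least 300 genes were clustered with scanpy 1.11.5 without mt- genes, and those with at most 25% mt- counts were kept; no doublets were removed. The edgeR script was tested on simulated data. Named members are both ribosomal RNAs, messenger RNAs averaging at least 1000 CPM, the 3 highest transfer RNAs and any member called in a genotype fit; mt-Nd3 and others called only in an alternative were added after their values were seen. Nuclear copies were sought among GENCODE M21 transcripts at 95% identity over 100 bases. By counting alone, the mt- share of a collection is known to 0.0443 percentage points or better (95% Wilson half-width, counting error only).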

Additional observations from a re-analysis of the deposited data

Results flagged for a closer look

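Several values differed between genotypes in opposite directions in the 2 biological replicates, with every collection of replicate 1 on one side and the single pair of replicate 2 on the other. These differences between replicates were not tested. The knockout minus flox difference in the mt- share of all counts was 2.11 percentage points in replicate 1 and -4.22 in replicate 2; in kept barcodes it was 0.726 and -1.48. For ribosomal RNAs it was 1.65 and -4.55 in all barcodes, and 0.370 and -1.63 in kept barcodes. For transfer RNAs it was 0.0161 and -0.00303. mt-Rnr1 differed by 2372 CPM in replicate 1 and -6976 CPM in replicate 2, and mt-Rnr2 by 12008 and -38531 CPM.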

How the results depend on the processing

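The higher ribosomal share of mt- counts in failing than in kept barcodes kept its direction in all 13 alternatives (15.1 to 24.8 percentage points), and 6 to 7 of 8 classes stayed above stem cell-like cells in that share. The genotype differences of the totals did not keep theirs. The mt- share differed by 0.306 percentage points as a median over barcodes of at least 300 genes, and by 1.91 for knockout collection 1 against flox collections 1 and 2, where the ribosomal share of counts differed by 1.70, the ribosomal share of mt- counts by 5.98, the messenger share of mt- counts by -6.00 and complex III by -2.58 points; complex IV differed by -1.98 points in the other set. These sets, and the values without shared barcodes, were chosen after seeing the data. With 1 collection left out at a time, the ranges were -1.41 to 1.79 for the mt- share, -1.78 to 1.52 for ribosomal RNAs, -6.63 to 4.97, -4.87 to 6.51 and -0.103 to 0.231 for the ribosomal, messenger and transfer shares of mt- counts, and -3.37 to 0.337, -0.0804 to 2.26 and -0.459 to 3.29 for complexes I, III and IV. On the log2 scale they were -0.54 to 0.65 for mt-Rnr1, -0.45 to 0.53 for mt-Rnr2, -0.0028 to 0.22 for mt-Nd5, -0.11 to 1.31 for mt-Tc and -0.53 to 0.55 for mt-Ty in all barcodes, and -0.98 to 0.44 for mt-Rnr1 and -0.67 to 0.14 for mt-Rnr2 in failing barcodes. Where a genotype was left with 1 sample, it is assumed to vary like the other. Over all genes, the alternatives called 0 to 43 in all barcodes, 1 to 25 in stem cell-like and 1 to 24 in enterocyte-like cells. Members called were 0 to 3 in all barcodes, 0 to 2 in stem cell-like and 0 to 1 in enterocyte-like cells, and cycling-like minus stem cell-like cells in ribosomal share -2.70 to 1.26 points. That last value was -1.08 with cells thinned. Paneth-like minus stem cell-like cells in messenger share was -0.218 with cells thinned. At a minimum of 600 genes, enterocyte-like minus stem cell-like cells was 0.0185 in messenger share and goblet-like minus stem cell-like cells 0.427 in mt- share. Against the Lgr5 cluster alone (chosen after seeing the data), cycling-like cells were at -2.04 points in ribosomal share, Paneth-like and tuft-like cells at -0.668 and -0.396 in messenger share, and enterocyte-like cells at -1.71 in mt- share. With single collections as samples mt-Ty was at -0.11. Without a filter on low counts mt-Nd3 was called in enterocyte-like cells (1 member), where 14 of 12509 genes were called. The cause of these changes was not tested, and the sparse transfer RNAs are limited by depth.

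The collection numbers do not pair the samples: same-numbered collections correlated at -0.11, 0.07 and 0.44 in their deviations from the genotype means, and the 2 biological replicate numbers at 0.40. With the biological replicate number as a block, edgeR called mt-Nd3 in all barcodes (0.74, adjusted p 0.0468) and in enterocyte-like cells (1.34, adjusted p 0.00442), 1 member in each. Over all genes that block called 18 of 10825 and 24 of 4495, against 1 in each without it. With the collection number as a block edgeR called mt-Nd3 in enterocyte-like cells alone (1.40, adjusted p 0.00854, 1 member), where 15 of 3731 genes were called. Under that block mt-Rnr1 and mt-Rnr2 were at 0.13 and 0.017 in all barcodes, positive as they were in 6 of 7 fits. The blocked differences in mt- and messenger share were -1.05 and 0.392 points. No other call of a member changed under a block.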

Other observations

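Within classes, the mitochondrial messenger share of counts by genotype is given as values over 2 biological replicates each, where an exact permutation p cannot go below 0.33. In stem cell-like cells it was 2.22% ± 0.146 in knockout and 1.87% ± 0.112 in flox, and in enterocyte-like cells 2.07% ± 0.700 in knockout and 1.63% ± 0.262 in flox. In goblet-like cells it was 1.24% ± 0.0023 in knockout and 1.43% ± 0.286 in flox. The difference between classes was not tested.

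Clusters with no cell type name also differed in these RNAs. The cluster led by Dst and Ppargc1a, a coactivator of mitochondrial biogenesis, had mt- messenger RNAs at 2.49% ± 0.399 of counts (SD, 4 biological replicates), above stem cell-like cells in 4 of 4, and the cluster led by Gm26917 was above them in 4 of 4 as well (exact sign-flip p = 0.13 each, the smallest possible). The cluster led by Akr1c19 and by Reg3g and Reg3b, which encode antimicrobial lectins, stood at 2.16% ± 0.254.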
